A study of Oryza sativa with 6 samples.

Results

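The genes described here are 6 rice loci of strigolactone synthesis and signalling, D27, D17, D10, D14, D3 and D53, taken by their identifiers from the 39477 loci of the expression table. They were measured by RNA sequencing in mature leaves of Oryza sativa, collected 60 days after germination from greenhouse plants kept at 30 °C in the day and 25 °C at night. The comparison is between SRL1 knockout mutants (srl1-KO, 3 libraries) and the control without the knockout (non-KO, 3 libraries), and it asks which genes differ in expression when SRL1, a gene known for its effect on leaf rolling, is knocked out. The labels give neither the cultivar, the lesion nor the number of independent lines, and the protocol speaks of leaves from 1 plant, so the p-values measure the spread between these libraries, part of which may be technical. All levels are FPKM, that is, fragment levels corrected for transcript length and for the library total.

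Strigolactones are carotenoid-derived hormones known for holding back the outgrowth of tiller buds, and in leaves for speeding senescence. In plastids the isomerase D27 and the carotenoid cleavage dioxygenases D17 (CCD7) and D10 (CCD8) act in turn to make carlactone, which cytochrome P450 enzymes of the MAX1 type oxidize to active hormones. The hydrolase D14 is the receptor. With hormone bound it joins the F-box protein D3, and the repressor D53 is then tagged and degraded. Transcripts of D10 and D53 are known to respond to the hormone, D10 falling and D53 rising.

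SRL1 (Os07g0102300) was detected in the knockout libraries, at 1.62, 2.22 and 1.96 FPKM in the order of their replicate numbers, and at 2.50, 2.70 and 3.30 FPKM in the controls. It was lower in every knockout library but not past the threshold (limma adjusted p = 0.107), and a transcript that persists says nothing of the protein. Summed FPKM ran from 598611 to 628270 per library, and the sequencing depth is unknown. The labelled tissue was checked against markers. The 5 mesophyll markers (3 Rubisco small subunits and 2 chlorophyll-binding proteins) summed to 11400 to 15000 FPKM in srl1-KO and 12200 to 16500 FPKM in non-KO. Of these, 1 was called, RBCS3, which fell (3720 to 2490 FPKM; limma adjusted p = 0.0427), while CAB2R was higher without overlap (1260 and 2770 FPKM; adjusted p = 0.0523). RBCS3 was not called when low loci were kept in the fit (limma adjusted p = 0.473). Among all loci tested, 27.2% were called. The root marker RCC3 was listed at 0 in all 6 libraries. Of the 3 meristem or bud markers, OSH1 and OSH15 were at 0 in all but 1 library each, at no more than 0.0237 FPKM, and MOC1 reached 2.10 FPKM in srl1-KO replicate 3 and at most 0.195 FPKM in the others.

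None of the 6 strigolactone genes was shown to differ between srl1-KO and non-KO. The receptor D14 and the F-box gene D3 were well expressed, D27 was low, and D53, D10 and D17 averaged under 1 FPKM. Averaged over the 6 libraries, D14, D3 and D27 reached the minimum of 1 FPKM set for testing. These 3 were tested and 0 rose or fell at an adjusted p under 0.05 in limma, against a background of 27.2% of the 19556 loci tested. None had an unadjusted p under 0.05 either, where 41.4% of tested loci did. With no filter on low levels all 6 could be tested and again 0 passed, against 14.9% of 32890 loci. The genotypes overlapped at all 6 genes, while 35.4% of loci detected in any library, and 47.1% of the tested loci, showed no overlap. So few genes leave the share itself uninformative, and the intervals below give what differences the data still allow. Leaves were sequenced in bulk, so fewer cells of a type and less RNA per cell cannot be told apart in any of these values.

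**Figure D1:**
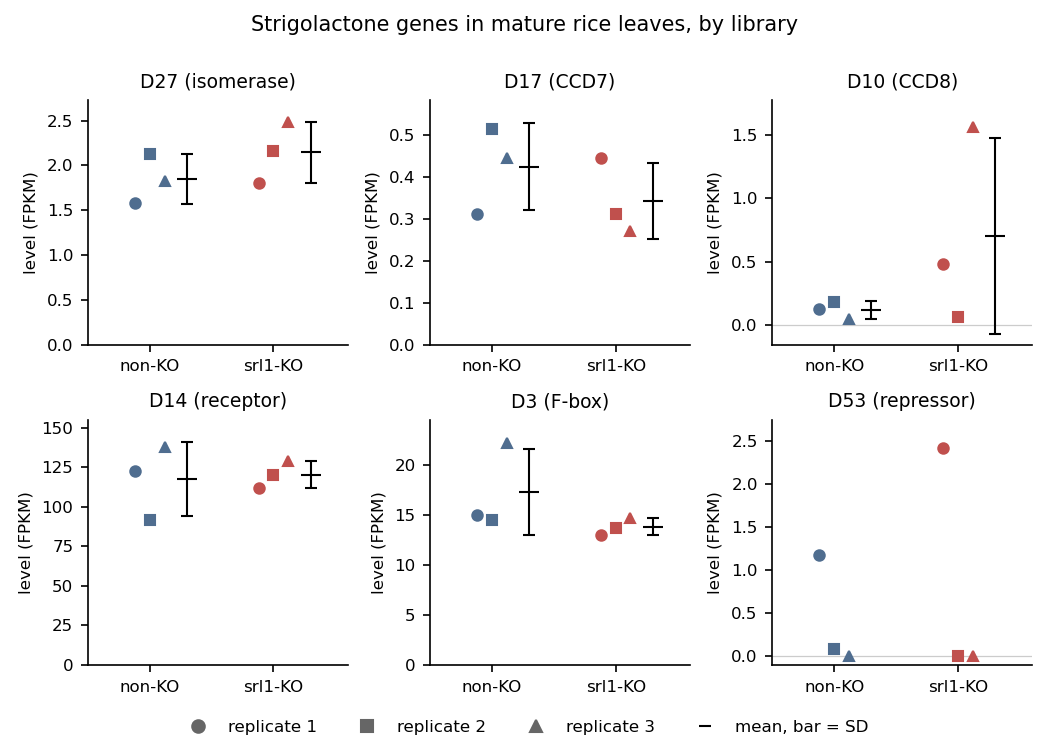
Level in FPKM of the 6 strigolactone genes in each library, with non-KO in blue and srl1-KO in red, symbols for replicates 1 to 3, and black marks for the mean with its SD (n = 3), left out for D53 because of near-zero values. D14 lies between 91.7 and 138 FPKM in both genotypes, and in each panel the values of the genotypes overlap.

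D27 (Os11g0587000, chromosome 11), the isomerase of the first step, had the highest mean of the 3 synthesis genes among the 6. In srl1-KO it was at 1.80, 2.16 and 2.48 FPKM, and in non-KO at 1.58, 2.13 and 1.83 FPKM, each in the order of replicates 1 to 3, as for all genes below. The means were 2.14 ± 0.339 and 1.85 ± 0.278 FPKM (SD, n = 3 each). The knockout libraries reached higher, yet the lowest of them lay within the non-KO range. The log2 change, here always srl1-KO minus non-KO of FPKM + 1, was 0.14 ± 0.16 (SE; limma adjusted p = 0.531), with a 95% interval from -0.23 to 0.51. It ran from 0.07 without srl1-KO replicate 3 or without non-KO replicate 1 to 0.22 without srl1-KO replicate 1.

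D17 (Os04g0550600, chromosome 4), the dioxygenase of the second step, was low and even across libraries. The srl1-KO libraries held 0.443, 0.310 and 0.271 FPKM and the non-KO libraries 0.312, 0.514 and 0.445 FPKM. The values of the 2 genotypes were interleaved (two-sided exact permutation p = 0.2, where 3 libraries against 3 cannot go below 0.1).

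D10 (Os01g0746400, chromosome 1), the enzyme that forms carlactone, varied widely between srl1-KO libraries. It stood at 0.477, 0.0614 and 1.57 FPKM there and at 0.125, 0.178 and 0.0422 FPKM in non-KO. Replicates 1 and 3 of the knockout were above all controls and replicate 2 was within them, so the difference in mean log2(FPKM + 1) of 0.51 was not resolved (two-sided exact permutation p = 0.3; limma adjusted p = 0.33 with no filter). Without srl1-KO replicate 3 the difference was 0.17. That library also held the highest level of MOC1 (Os06g0610300), a factor of axillary buds, at 2.10 FPKM against 0.195 FPKM or less elsewhere, while OSH1 and OSH15 were at 0 in it. MOC1 was listed above 0 but under 0.001 FPKM in 3 libraries, values that few loci show, so its level is uncertain. The 3 secondary-wall cellulose synthases, markers of fibre and xylem cells, summed to 8.07 FPKM in it, against 2.82 and 3.25 FPKM in the other srl1-KO libraries. In non-KO they summed to 3.49, 2.05 and 18.4 FPKM, highest in replicate 3, where D10 was lowest. The part of these cells in the D10 values was not tested.

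Downstream of D10, the MAX1-type P450 genes differed widely in level. OS1900 (Os02g0221900) was the most abundant, at 7.77, 7.20 and 3.60 FPKM in srl1-KO and 4.15, 2.33 and 2.05 FPKM in non-KO. Knockout replicates 1 and 2 exceeded all controls and replicate 3 did not. Its log2 change of 0.89 ± 0.31 (SE) missed the threshold with all libraries (limma adjusted p = 0.0779). It passed without srl1-KO replicate 3 (adjusted p = 0.0254), with library weights (adjusted p = 0.0335) and with the replicate number as a block (adjusted p = 0.041), out of a range of 0.0254 to 0.211 over all alternatives. OS5100 (Os06g0565100) had means of 1.30 ± 0.552 FPKM in srl1-KO and 1.11 ± 0.532 FPKM in non-KO (SD, n = 3 each; limma adjusted p = 0.739). OS900 (Os01g0700900), a carlactone oxidase, was low and did not overlap, at 0.504, 0.275 and 0.316 FPKM in srl1-KO and 0, 0.0958 and 0.226 FPKM in non-KO (limma adjusted p = 0.0988 with no filter; exact two-sided permutation p = 0.1, which is the minimum). OS1400, an orobanchol synthase, and OS1500 were listed at 0 in all 6 libraries. CCD8A, a paralog of D10, ranged from 0 to 0.858 FPKM. Of these 6 synthesis genes 2 were tested, and none rose or fell.

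D14 (Os03g0203200, chromosome 3), the receptor, was by far the most abundant of the 6 genes, and 98.2% of loci in the table had a lower mean. It was at 112, 120 and 129 FPKM in srl1-KO and at 123, 91.7 and 138 FPKM in non-KO. All 3 knockout values lay between the lowest and the highest control. The means were 120 ± 8.46 and 118 ± 23.8 FPKM (SD, n = 3 each). Its log2 change was 0.05 ± 0.17 (SE; limma adjusted p = 0.856), and the 95% interval from -0.35 to 0.45 bounds a difference in either direction. The sign of this small value was not fixed, since scaling by median ratios gave -0.06.

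D3 (Os06g0154200, chromosome 6), the F-box protein shared by strigolactone and karrikin signalling, had a mean above that of 83.2% of loci. It was measured at 13.0, 13.7 and 14.7 FPKM in srl1-KO and at 15.0, 14.5 and 22.2 FPKM in non-KO. The genotypes overlapped narrowly, and 1 control library, replicate 3, stood above the rest. The log2 change was -0.28 ± 0.17 (SE; limma adjusted p = 0.267; 95% interval from -0.69 to 0.14). Without non-KO replicate 3 it was -0.09. The same library had the highest sum of the secondary-wall cellulose synthases, 18.4 FPKM, and the part of those cells in the D3 value was not tested.

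D14L, a relative of D14 that also works with D3, is the karrikin receptor. Its name could not be checked, so the values under the identifier written down for it (Os03g0437200) are not relied on as its own. The locus under that identifier was tested and not called. It was at 3.28, 0.950 and 0.0709 FPKM in srl1-KO and at 1.51, 1.39 and 1.04 FPKM in non-KO. The knockout libraries spread on both sides of the controls, so that its interval of -1.29 to 0.98 on the log2 scale allows a large difference in either direction (limma adjusted p = 0.836). SMAX1 (Os08g0250900), the repressor of karrikin signalling and a relative of D53, was at 49.9, 45.7 and 56.1 FPKM in srl1-KO and at 68.8, 61.4 and 57.1 FPKM in non-KO. It was lower in each knockout library than in any control, by a log2 change of -0.30 ± 0.12 (SE), and did not pass the threshold (limma adjusted p = 0.114), though it did with library weights (adjusted p = 0.0429; range over alternatives 0.0429 to 0.357).

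D53 (Os11g0104300, chromosome 11), the repressor that strigolactone removes, had values that differed by orders of magnitude within each genotype. It was listed in srl1-KO at 2.42, 1e-05 and 1.3e-05 FPKM and in non-KO at 1.17, 0.0893 and 0.00015 FPKM. Replicate 1 of each genotype held nearly all of the signal and the genotypes overlapped (two-sided exact permutation p = 1.0). The difference in mean log2(FPKM + 1) of 0.18 became -0.41 without srl1-KO replicate 1 and 0.53 without non-KO replicate 1. Values above 0 and under 0.001 FPKM, as in 3 of these libraries, occurred in any library at only 0.674% of the loci in the table. D53 lies in the end of chromosome 11 that is duplicated on chromosome 12, where D53L (Os12g0104300) is its close copy. How fragments that match both copies were assigned is not stated by the sources used, so the split between them is uncertain.

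D53L was higher in srl1-KO. It was at 10.7, 10.7 and 11.7 FPKM in srl1-KO and at 5.16, 3.53 and 2.65 FPKM in non-KO, and every knockout library was at more than the highest control. The means were 11 ± 0.586 and 3.78 ± 1.27 FPKM (SD, n = 3 each), a 2.92-fold difference (limma adjusted p = 0.00418; log2 change 1.36 ± 0.20 SE). Because the copies may share fragments, their levels were also summed, giving 13.1, 10.7 and 11.7 FPKM in srl1-KO and 6.34, 3.62 and 2.65 FPKM in non-KO. The sum rose 2.82-fold (log2 change 1.36 ± 0.26 SE; limma adjusted p = 0.0105; range over alternatives 0.00356 to 0.0368), without overlap. D53 took 18.4% of the sum in srl1-KO replicate 1 and 18.5% in non-KO replicate 1, 2.46% in non-KO replicate 2 and less than 0.01% in the other 3 libraries. The rise is therefore a statement about the pair, and which copy carries it cannot be told apart.

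**Figure D2:**
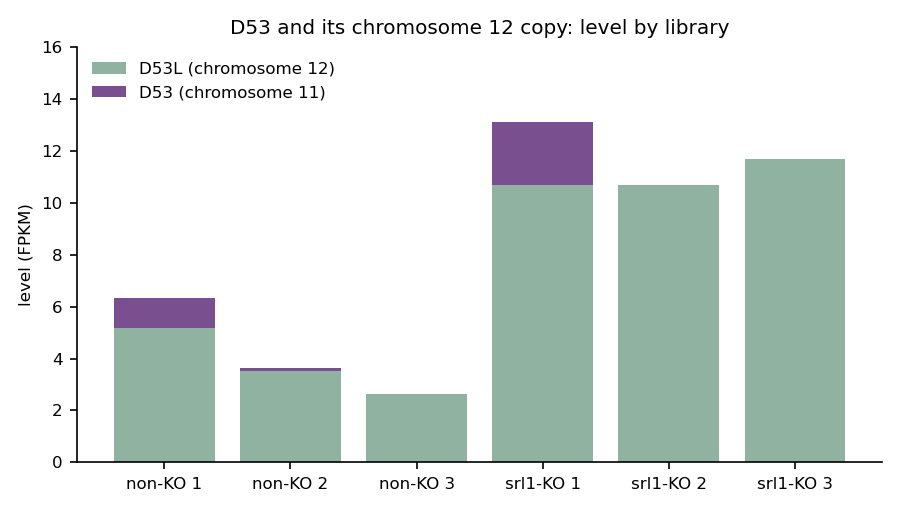
Level in FPKM by library of D53 on chromosome 11 (purple) stacked on its copy D53L on chromosome 12 (green), for 3 non-KO and 3 srl1-KO libraries. The summed bars reach 2.65 to 6.34 FPKM in non-KO and 10.7 to 13.1 FPKM in srl1-KO, and D53 is visible only in replicate 1 of each genotype and, thinly, in non-KO replicate 2.

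D53L lies on a chromosome where called loci rose more often than they fell. Rises made up 15.3% and falls 11.9% of all tested loci, but 21.4% and 6.06% of the 1023 tested on chromosome 12. In the end of that chromosome (identifiers starting with Os12g010), 11 of 40 tested loci rose (27.5%), D53L among them, 0 fell and 29 were not called. The difference of these shares from those of all loci was not tested. With median-ratio scaling, 10.6% of all tested loci rose and 14.1% fell, against 15.2% and 7.33% on chromosome 12 and 20.0% and 2.5% in its end. The part of this stretch in the D53L value was not tested. Of 25 pairs of loci with the same number in the ends of chromosomes 11 and 12 and at least 1 FPKM in the sum of their means, 3 pairs, including D53 with D53L, had a value above 0 and under 0.001 FPKM in a copy.

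The TOPLESS-type corepressors, through which D53 acts, differed little. TPR3 (Os03g0254700) had means of 49.6 ± 2.91 FPKM in srl1-KO and 43.3 ± 2.73 FPKM in non-KO without overlap (SD, n = 3 each; limma adjusted p = 0.192). TPR1 (Os01g0254100) had means of 33.8 ± 7.11 and 28.1 ± 6.90 FPKM (limma adjusted p = 0.405). Of the 4 repressors and corepressors, D53L rose, with the limit on the pair given above, and the other 3 were not called.

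Genes that act on or after the pathway were mostly low in these leaves. IPA1 (Os08g0509600), an SPL factor that D53 binds and represses, stood at 0.778, 0.841 and 0.910 FPKM in srl1-KO and 0.529, 0.440 and 0.546 FPKM in non-KO. The groups were tight and did not overlap (exact two-sided permutation p = 0.1, which is the minimum). Its mean lay under 1 FPKM, and with no filter the limma adjusted p was 0.0651. CKX9 (Os05g0374200), a cytokinin oxidase induced by strigolactone, had means of 0.340 ± 0.0891 and 0.267 ± 0.0555 FPKM and overlapped.

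MADS57 (Os02g0731200), a MADS-box factor known to repress D14, rose in srl1-KO. It was at 11, 13.1 and 10.7 FPKM in srl1-KO and at 5.04, 7.54 and 6.12 FPKM in non-KO, without overlap. The difference was 1.87-fold (limma adjusted p = 0.0123; log2 change 0.81 ± 0.16 SE) and missed the threshold without srl1-KO replicate 2 (adjusted p = 0.052). D14 itself was not called, as given above.

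Among the other carotenoid cleavage dioxygenases, CCD4A (Os02g0704000) rose. It was at 313, 398 and 485 FPKM in srl1-KO and at 131, 183 and 120 FPKM in non-KO, a 2.76-fold difference without overlap (log2 change 1.46 ± 0.22 SE; limma adjusted p = 0.00523). CCD1 (Os12g0640600) was at 80.9, 85.3 and 82.8 FPKM in srl1-KO and 89.3, 104 and 138 FPKM in non-KO. Every control exceeded every knockout library, and the difference was not past the threshold (log2 change -0.38 ± 0.17 SE; limma adjusted p = 0.132), and the log2 change was -0.21 without non-KO replicate 3. The zaxinone synthase ZAS was listed at 0 in all libraries, and CCD4B reached at most 0.0534 FPKM.

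**Figure D3:**
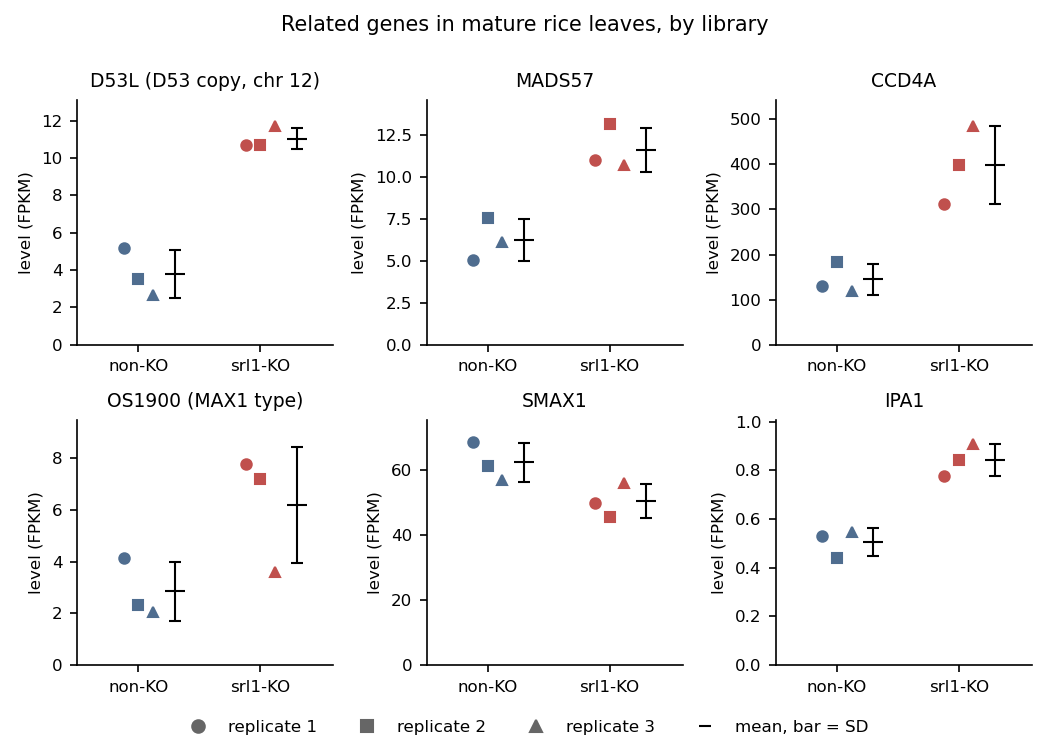
Level in FPKM by library of D53L, MADS57, CCD4A, OS1900, SMAX1 and IPA1, drawn as for the 6 strigolactone genes, with the mean and SD (n = 3) in black. D53L, MADS57, CCD4A and IPA1 are higher in all srl1-KO libraries than in any non-KO library, SMAX1 is lower, and OS1900 overlaps. The genes drawn were selected from 18 related genes, of which 8 did not overlap and 10 were tested. Of the 10 tested, D53L, SMAX1, TPR3, MADS57, CCD1 and CCD4A did not overlap, beside 47.1% of tested loci.

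Counted over the lists, 8 of the 14 related synthesis, perception, repressor, target and regulator genes found in the table were tested. D53L, whose rise cannot be told apart from one of D53, and MADS57 rose, 0 fell and 6 were not called. The 25.0% called is close to the 27.2% of all tested loci. With the other carotenoid cleavage dioxygenases added, 8 of 18 related genes did not overlap between genotypes. The 18 include 8 untested genes, 3 of them at 0 in all libraries, so this share is not like either background. Of the 10 tested, D53L, SMAX1, TPR3, MADS57, CCD1 and CCD4A did not overlap, beside 47.1% of tested loci. With the 3 genes at 0 left out all 8 remain, beside 35.4% of loci detected in any library. The median log2 change of the 8 tested among the 14 was 0.22, beside 0.11 over all tested loci and 0.05 over D14, D3 and D27. With median-ratio scaling the median of all tested loci was 0.02. Relative to the shift of 0.11, D53L changed by 1.25, MADS57 by 0.70, CCD4A by 1.35, D27 by 0.03, D14 by -0.06 and D3 by -0.39 on the log2 scale.

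**Figure D4:**
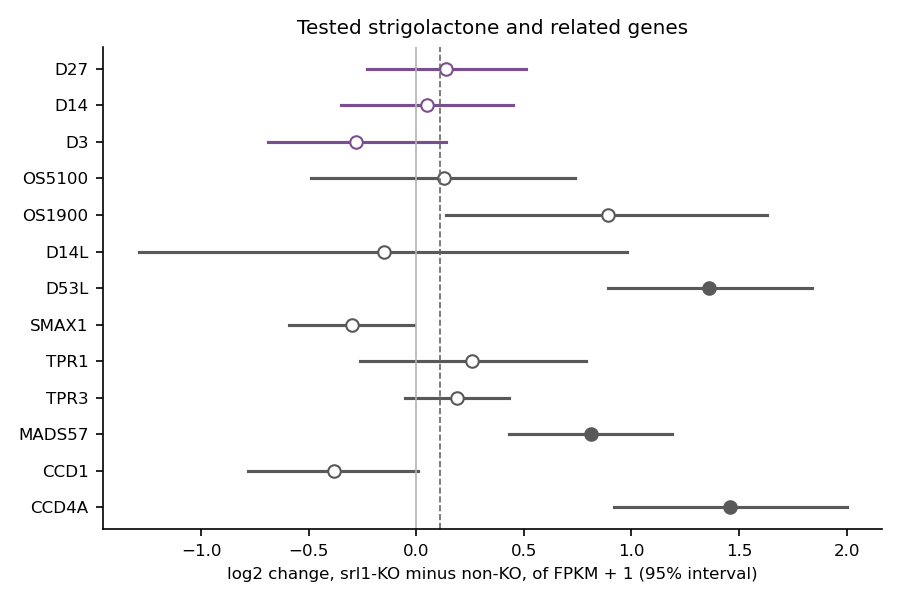
Log2 change (srl1-KO minus non-KO, of FPKM + 1) with its 95% interval for the 3 tested strigolactone genes (purple) and 10 tested related genes (grey), filled where the adjusted p is under 0.05, with the median of all tested loci, 0.11, as a dashed line. The intervals of D27, D14 and D3 span 0, and D53L, MADS57 and CCD4A lie to the right. The row labelled D14L shows the locus listed for it, whose name could not be checked.

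The order of mean levels over the 6 libraries was D14 (119 FPKM), D3 (15.5 FPKM), D27 (2.0 FPKM), D53 (0.614 FPKM), D10 (0.408 FPKM) and D17 (0.383 FPKM). D14, D3 and D27 did not overlap with each other in any library, whereas D53, D10 and D17 overlapped and their order is not resolved. The receptor was 6.22 to 8.78 times as abundant as its F-box partner, per length, in every library.

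**Figure D5:**
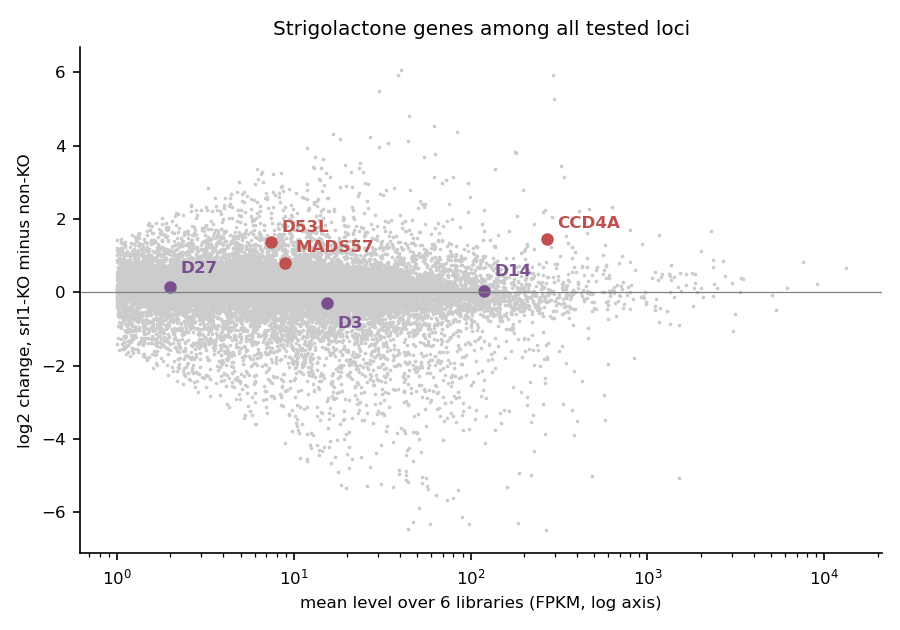
Mean level over 6 libraries (FPKM, log axis) against the log2 change (srl1-KO minus non-KO) of the 19556 tested loci in grey, with D27, D14 and D3 in purple and the 3 related genes that rose in red. The purple points lie within the grey band around 0 at low, middle and high levels.

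Loci with the most similar profile were sought for each tested gene by the root mean square difference of log2(FPKM + 1) over the 6 libraries, each profile centred on its own mean. They were Os08g0484100 and Os06g0158300 for D27 (0.013 and 0.024), Os09g0380450 and Os05g0490300 for D14 (0.0345 and 0.0462) and Os06g0539400 and Os03g0848600 for D3 (0.0483 and 0.054). Among so many loci a near match is easily found, and the table does not name them.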

How the data were processed

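The authors deposited FPKM values, 1 column per library, with replicates not pooled. HISAT2, DESeq2 and the build IRGSP-1.0 are named, without roles, per the submitters' processing notes; the tool behind the FPKM, its gene annotation and whether strand was used are not stated there. FPKM depends on the total of each library, so a few abundant genes can shift all others. Depth is unknown, so counting intervals are not given.

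Loci averaging at least 1 FPKM were fitted as log2(FPKM + 1) with limma 3.58.1 in R 4.3.3 (two-sided, mean-variance trend, Benjamini-Hochberg over all 19556 loci, threshold 0.05), which understates changes of low loci. The fit was tested on simulated data, in which far fewer loci changed than were called here. It recovered 1.52% of log2 changes of 0.5, 32.8% of 1 and 83.6% of 2, with 3 false calls. Small changes were thus mostly missed in the simulated data. With fewer changed loci the adjusted threshold is stricter, so these shares cannot be carried over to the real data, where the share missed was not measured. Members, lists and naming rule were chosen with earlier results of these data known. All 6 members are named with their values, and list genes with values where tested or listed at 0. Identifiers of related genes came from general knowledge. Of 28 names, 10 stood on the same chromosome in the RefSeq table of another assembly (all 14 pairs on 1 chromosome, markers included, in the same order), 16, among them D27, D53 and D53L, were not in it, and 2 (TPR2 and FC1) stood only on other chromosomes and were dropped; the table gives the name TPR1 on chromosomes 1 and 3. The identifiers written down for NSP1 and NSP2 were not listed in the expression data, so neither was analysed. No sequence was used. Alternatives were other pseudocounts, filters, scalings, weights, a replicate block and leaving out each library.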

Additional observations from a re-analysis of the deposited data

How the results depend on the processing

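Over 16 alternative settings, the number of strigolactone members past the threshold was 0 in each. D10, D17 and D53 could be called only in the setting with no filter, and D27 could not be called with a filter at 5 FPKM. D53L, CCD4A and the sum of D53 and D53L (the sum's settings were chosen after seeing the data) passed in all 16. The replicate block, used although nothing in the labels says that the shared numbers pair libraries and deviations of same-numbered libraries correlated at only -0.05, 0.05 and 0.02, lowered the rises over all loci from 2995 to 1765. Leaving out 1 library gave 1330 to 2547 rises and 1613 to 2102 falls, against 2326 falls with all, and rises were lower by over 1.5 times without replicate 1 or 2 of either genotype. Of 220 values of tested genes under alternatives, 210 kept their sign and side of the threshold, 1 lost and 4 gained a call, and 5 changed sign. These 5 belong to uncalled loci. For D14 they came with median-ratio scaling (-0.06), without srl1-KO replicate 3 (-0.003) and without non-KO replicate 2 (-0.12). OS5100 (-0.06) and the locus listed for D14L (0.32) changed sign without srl1-KO replicate 3. Leaving out 1 library took the log2 change of D14 from -0.12 to 0.17 and of OS5100 from -0.06 to 0.33. For the locus listed for D14L it went from -0.67 to 0.32. The cause was not tested. Fewer libraries leave fewer degrees of freedom. A pseudocount of 0.1 (for genes under 1 FPKM chosen after seeing the data) took the difference of D10 from 0.51 to 1.37 and that of D53 from 0.18 to 0.02. The value of D53 was -0.41 without srl1-KO replicate 1, 0.53 without non-KO replicate 1 and 1.36 when summed with D53L. Unknown depth limits what can be said of D10, D17 and D53.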

Other observations

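The FPKM ratio of D14 to D3, looked at after the values were seen, was 8.63, 8.74 and 8.78 in the knockout and 8.19, 6.33 and 6.22 in the control, by replicate number. The srl1-KO libraries were nearly equal in this ratio and all above the controls, although neither gene alone separated the genotypes. The margin over non-KO replicate 1 was small. The lower ratios came with a low D14 in non-KO replicate 2 (91.7 FPKM) and a high D3 in non-KO replicate 3 (22.2 FPKM). Of single tested loci, 47.1% showed no overlap, and the share among ratios of 2 genes was not computed. No test was made of it.

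The identifiers written down for TPR2 and FC1, whose names the reference table gives only on other chromosomes, had values that are given here without a name being relied on. The locus listed for TPR2 (Os08g0162100) was at 35.0 ± 2.0 FPKM in srl1-KO and 30.8 ± 1.99 FPKM in non-KO (SD, n = 3 each; limma adjusted p = 0.221). The locus listed for FC1 (Os03g0706500) was at no more than 0.0405 FPKM in any library.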
